A study of Zea mays with 4 samples.

Results

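A set of 157 loci of the maize (Zea mays) endosperm transcriptome was lower in the rea1 mutant than in wild type in both total and polysome-bound RNA, relative to the shift of the other loci. They were chosen from 29642 listed loci by their measured values. A locus had to lie on a nuclear chromosome or scaffold, measure at least 600 and less than 20000 bp, and average at least 1 and less than 100 FPKM (fragments scaled by transcript length and library size) across the libraries. Its log2 ratio of rea1 to wild type, taken on FPKM + 1, had to lie at -1 or below in total RNA and also in polysome-bound RNA, after the median ratio over the 17682 loci averaging 1 FPKM or more had been subtracted. These centred ratios are used throughout unless a value is said to be as deposited. The limits on mean and length left 15835 loci, of which the 157 are 0.991%.

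The 4 libraries were rea1 total RNA, wild-type total RNA, rea1 polysome-bound RNA and wild-type polysome-bound RNA, all from endosperm at 15 days after pollination (DAP). The labels give the mutant by the name rea1 and state neither its allele nor the genetic background of either genotype. Each group was 1 file with 1 value per locus, although the design text speaks of triplicates, and how replicates entered a value was not stated. Genotype differences therefore have no replicate error and no test. The polysome-bound RNA was a pellet from a sucrose cushion, and whether a genotype's total and polysome-bound RNA share a tissue sample was not stated, so a ratio in one fraction is not an independent repeat of that in the other. The deposited files identify loci by B73 RefGen_v3 coordinates alone, with neither gene name nor strand, so the labelled tissue could not be checked against marker genes, and loci are named here by position, counted from 1. Read totals were not stated either, and the summed FPKM lay between 846544 and 977156 per library.

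Endosperm is the filial storage tissue of the cereal kernel, where starch and storage proteins accumulate during grain filling. An mRNA that is being translated carries several ribosomes and pellets with them through dense sucrose, so the RNA of that pellet represents messages associated with ribosomes. In yeast, the protein Rea1, also called midasin, is a large ATPase that removes assembly factors from the precursor of the large ribosomal subunit.

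In sum, the 157 loci stood at 827 FPKM in rea1 total RNA, against 2147 FPKM in wild-type total RNA. In polysome-bound RNA they summed to 1021 FPKM in rea1 and 2667 FPKM in wild type. As deposited, the sum was thus 2.60-fold lower in rea1 in total RNA and 2.61-fold lower in polysome-bound RNA. In bulk tissue, fewer cells of a type and less RNA per cell cannot be told apart. The set was a small part of every library, with 0.0948% of the rea1 and 0.220% of the wild-type summed FPKM in total RNA, and 0.121% of the rea1 and 0.298% of the wild-type sum in polysome-bound RNA. The 10 loci of highest mean FPKM held between 32.1% and 35.8% of the set's sum, depending on the library.

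The members were low in rea1, where the rule asked for it, and not in wild type. The median member had 1.42 FPKM in rea1 total RNA and 4.50 FPKM in wild-type total RNA, and the middle 50% of members spanned 0.636 to 5.6 FPKM in rea1 and 2.14 to 15.5 FPKM in wild type. In polysome-bound RNA the median was 2.22 FPKM in rea1 and 6.07 FPKM in wild type, with quartiles of 1.19 and 5.89 FPKM in rea1 and 3.22 and 18 FPKM in wild type. Over all loci within the limits the medians were 9.34 FPKM in rea1 and 5.66 FPKM in wild-type total RNA, and 6.22 FPKM in rea1 and 5.26 FPKM in wild-type polysome-bound RNA. The wild-type medians of the members thus lay somewhat below that of all loci in total RNA and somewhat above it in polysome-bound RNA. The ranges of both genotypes overlapped widely across members. In rea1, 59 members were below 1 FPKM in total RNA and 31 in polysome-bound RNA; in wild type these numbers were 7 and 1. Such low values may rest on few fragments, and the + 1 in the ratio understates the difference.

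**Figure D1:**
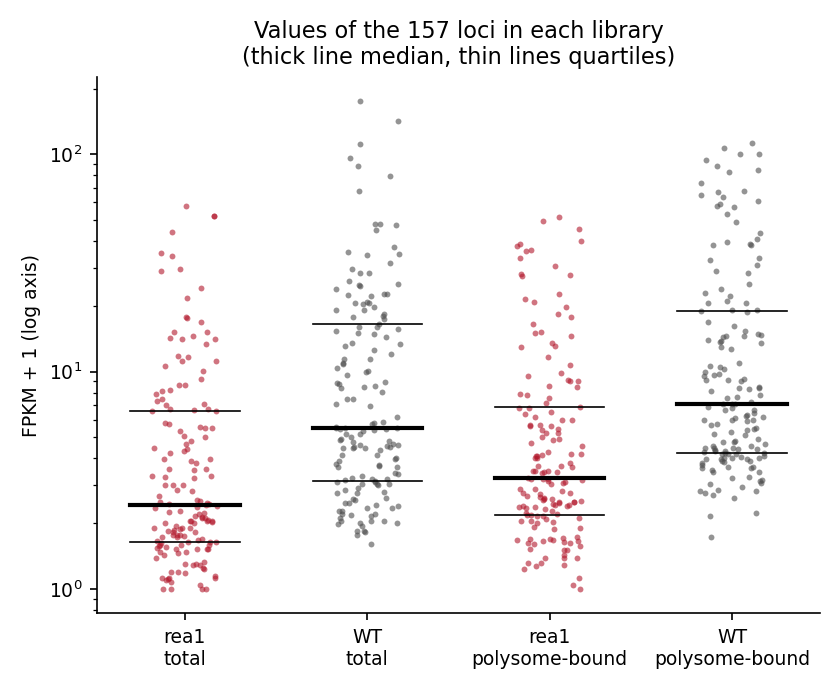
FPKM + 1 on a log axis for each of the 157 loci in the 4 libraries, 1 point per locus, with the median as a thick line and the quartiles as thin lines. The median is 1.42 FPKM in rea1 total RNA against 4.50 FPKM in wild-type total RNA, and 2.22 against 6.07 FPKM in polysome-bound RNA; the rule chose loci with this difference.

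The centring matters for how the ratios read. As deposited, the median log2 ratio over the 17682 loci was 0.62 in total RNA and 0.24 in polysome-bound RNA, so most loci stood higher in rea1. A centred ratio of -1 therefore equals a deposited log2 ratio of -0.38 in total RNA, or 76.8% of the wild-type value (on FPKM + 1), and of -0.76 in polysome-bound RNA, or 59.2%. All 157 members were lower in rea1 in both fractions also as deposited. Of them, 47 were at least 2-fold lower in both fractions as deposited, on FPKM + 1, which 0.297% of the 15835 loci were. In total RNA alone 73 members passed that fold on FPKM + 1 as deposited (1.46% of the loci within the limits did), and 90 in polysome-bound RNA (1.11%). Folds given below for single members leave out the + 1 and are larger.

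Within the limits, 923 loci (5.83%) had a centred ratio of -1 or below in total RNA and 366 (2.31%) in polysome-bound RNA. The 157 members were 17.0% of the loci that were lower in total RNA and 42.9% of those lower in polysome-bound RNA. Their median centred ratio was -1.55 in total RNA and -1.31 in polysome-bound RNA, against -0.01 in each for all loci within the limits. Since both ratios chose the members, these medians describe the set and are no evidence for it. Most members lay near the threshold in polysome-bound RNA, where 48 were at -1.5 or below, against 85 in total RNA. In 33 both ratios were at -1.5 or below, and in 4 at -2 or below, a level reached by 0.0253% of the loci within the limits. The larger of both ratios lay between -1.1 and -1 in 52 members, and between -1 and -0.9 in 56 loci just outside.

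**Figure D2:**
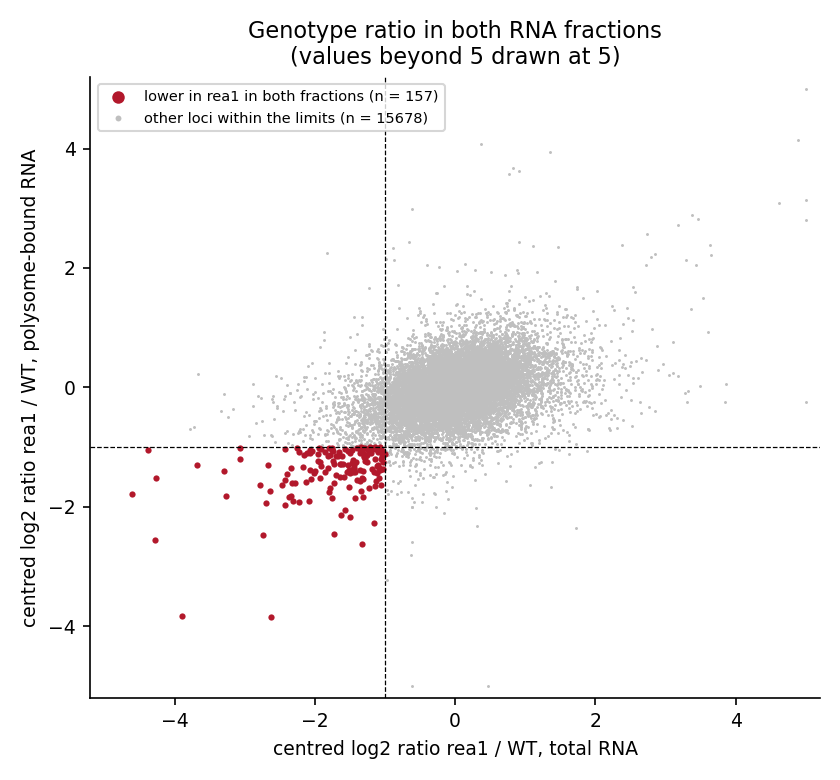
Centred log2 ratio, rea1 to wild type, in total RNA (x axis) and polysome-bound RNA (y axis) for the 15835 loci within the limits; the 157 members are red and the dashed lines mark -1. The members fill the lower left corner that the rule cut out, with 4 of them at -2 or below on both axes.

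The 3 members closest to the threshold were 1.34- to 1.72-fold lower in rea1 in total RNA as deposited and 1.96- to 2.16-fold lower in polysome-bound RNA. The locus chr1:73382596-73385374 had 8.20 FPKM in rea1 and 11 FPKM in wild-type total RNA, and 6.92 FPKM in rea1 and 13.6 FPKM in wild-type polysome-bound RNA (centred ratios -1.0 and -1.12). At chr6:14357580-14358669 the values were 1.02 and 1.75 FPKM in total RNA of rea1 and wild type, and 1.47 and 3.18 FPKM in their polysome-bound RNA. The locus chr2:176993655-176994450 had 6.0 FPKM in rea1 and 9.05 FPKM in wild-type total RNA, and 1.74 FPKM in rea1 and 3.65 FPKM in wild-type polysome-bound RNA. The 3 loci just outside all missed the threshold in polysome-bound RNA alone. For chr6:159659774-159661050 the values were 4.89 FPKM in rea1 and 7.35 FPKM in wild type in total RNA, and 7.03 and 12.5 FPKM in polysome-bound RNA, with centred ratios of -1.12 and -0.997. The locus chr8:153104841-153108971 had 3.16 FPKM in rea1 and 5.23 FPKM in wild-type total RNA, and 7.45 FPKM in rea1 and 13.2 FPKM in wild-type polysome-bound RNA. The third, chr3:7079526-7083312, had a centred ratio of -0.99 in polysome-bound RNA at 28.6 FPKM in rea1 and 48.8 FPKM in wild type, while its total RNA was 23.1 FPKM in rea1 and 64.4 FPKM in wild type. With 1 library per group, the loci on either side of the threshold cannot be told apart by these values.

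Among members above 0 in all 4 libraries and with coordinates of their own, the 8 of highest mean FPKM were all below 60 FPKM in both rea1 libraries. The most abundant, chr2:1957113-1958008, had 56.5 FPKM in rea1 total RNA and 174 FPKM in wild-type total RNA, against 48.4 FPKM in rea1 and 87.2 FPKM in wild type in polysome-bound RNA. Its fold was larger in total RNA (3.08-fold lower in rea1) than in polysome-bound RNA (1.80-fold). Next came chr7:158998200-158999609, at 51.0 FPKM in rea1 and 95.5 FPKM in wild type in total RNA, and at 44.5 FPKM in rea1 and 99.1 FPKM in wild type in polysome-bound RNA. The locus chr5:63737656-63740241 had 28.1 FPKM in rea1 and 78.3 FPKM in wild-type total RNA, and 50.4 FPKM in rea1 and 112.3 FPKM in wild-type polysome-bound RNA. These 3 loci were thus 1.87- to 3.08-fold lower in total RNA as deposited and 1.80- to 2.23-fold lower in polysome-bound RNA.

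The next pair were richer in total than in polysome-bound RNA in both genotypes. At chr2:10000081-10001081 the values were 50.7 FPKM in rea1 and 110.3 FPKM in wild type in total RNA, and 12.2 FPKM in rea1 and 60.2 FPKM in wild type in polysome-bound RNA, so that the difference was larger on polysomes (4.95-fold lower in rea1, against 2.17-fold in total RNA). At chr5:21903403-21908619 they were 42.9 FPKM in rea1 and 141.7 FPKM in wild type in total RNA, and 12 FPKM in rea1 and 32.5 FPKM in wild type in polysome-bound RNA. This locus of 5217 bp was the only member of at least 5000 bp with a mean of 20 FPKM or more. The other 3 were richer in polysome-bound RNA in both genotypes. The locus chr9:51770330-51771142 had 28.6 FPKM in rea1 and 47.0 FPKM in wild-type total RNA, and 32.2 FPKM in rea1 and 99.6 FPKM in wild-type polysome-bound RNA. The locus chr1:256145757-256146645 had 12.4 FPKM in rea1 and 47.0 FPKM in wild-type total RNA, and 35.1 FPKM in rea1 and 93.4 FPKM in wild-type polysome-bound RNA. The last, chr1:228464359-228465647, had 7.64 FPKM in rea1 and 27.4 FPKM in wild-type total RNA, and 34.9 FPKM in rea1 and 105.7 FPKM in wild-type polysome-bound RNA. These members therefore held different places between the fractions, while each was lower in rea1 in both.

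Among the same members above 0 in all libraries, the 6 with the lowest mean of both centred ratios were all at most 5.6 FPKM in rea1. Among all members, chr10:39922729-39924376 (mean -2.89) and chr2:65764943-65765893 (-2.71), listed at 0 in a rea1 library, would rank before the last 2 of these. The locus with the lowest mean, chr5:208689492-208691178, had 1.35 FPKM in rea1 and 21.7 FPKM in wild-type total RNA, and 1.37 FPKM in rea1 and 27.4 FPKM in wild-type polysome-bound RNA. It was 16.1-fold lower in total and 19.99-fold lower in polysome-bound RNA, and was the only member with both centred ratios at -3 or below (-3.89 and -3.83). At chr8:853213-853915 the values were 1.51 FPKM in rea1 and 30.7 FPKM in wild-type total RNA, and 5.53 FPKM in rea1 and 31.6 FPKM in wild-type polysome-bound RNA. The locus chr3:23898039-23899690 was mostly seen on polysomes, with 0.116 FPKM in rea1 and 3.50 FPKM in wild-type total RNA, and 4.6 FPKM in rea1 and 67.0 FPKM in wild-type polysome-bound RNA. These 3 loci stood at or above 20 FPKM in at least 1 wild-type library and at or below 5.53 FPKM in both rea1 libraries.

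In the next 3 the fold was larger in total RNA. The locus chr4:198956014-198957649 had 1.83 FPKM in rea1 and 43.9 FPKM in wild-type total RNA, which gave the lowest centred ratio of the set in total RNA (-4.61), and 3.70 FPKM in rea1 and 12.7 FPKM in wild-type polysome-bound RNA. At chr8:100382637-100385781 the values were 1.08 FPKM in rea1 and 7.99 FPKM in wild-type total RNA, and 3.11 FPKM in rea1 and 18.3 FPKM in wild-type polysome-bound RNA, 7.42-fold and 5.87-fold lower. At chr6:128648202-128649046 they were 2.55 FPKM in rea1 and 21.3 FPKM in wild-type total RNA, and 4.19 FPKM in rea1 and 14.4 FPKM in wild-type polysome-bound RNA. Without the + 1, over the 153 members above 0 in all libraries, the deposited difference ran between 1.34-fold and 30.3-fold lower in rea1 in total RNA, with a median of 2.68-fold, and between 1.74-fold and 29.3-fold in polysome-bound RNA, with a median of 2.62-fold.

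**Figure D3:**
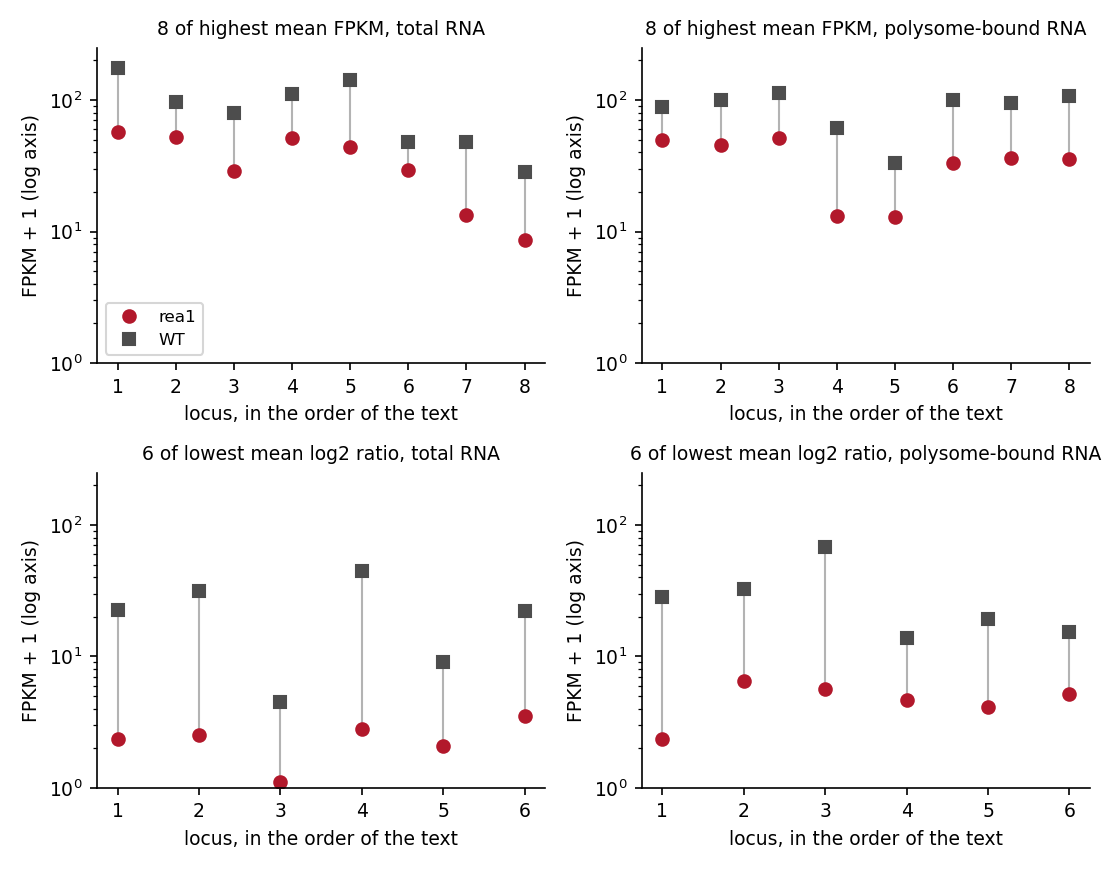
FPKM + 1 on a log axis in rea1 (red circles) and wild type (grey squares) for the 8 members of highest mean FPKM (top) and the 6 of lowest mean log2 ratio among members above 0 in all libraries (bottom), in total RNA (left) and polysome-bound RNA (right), each numbered in the order in which the text gives them. Each rea1 point lies below its wild-type point; in the bottom row, locus 1 is 16.1-fold lower in total and 19.99-fold lower in polysome-bound RNA.

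Members differed in how the difference was shared between the fractions. A change of the polysome-to-total ratio is the centred genotype ratio (log2) of polysome-bound RNA less the same of total RNA. A positive value means a smaller reduction on polysomes than in total RNA, each relative to the median shift in that fraction. Its median was 0.21 over the members and 0.00 over the 17682 loci. The sign of the members' median rests on the centring: as deposited, their median log2 ratio was -0.93 in total and -1.06 in polysome-bound RNA. Without centring, the median change over the 17682 loci was -0.37. After centring, the change was above 0 in 117 of the 157 members (74.5%) and in 50.8% of the loci within the limits. At 1 or above were 17 members (10.8%), where 4.46% of the loci within the limits were, and at -1 or below were 3 members (1.91%), where 6.07% were. In 95 members (60.5%) it lay within 0.5 of 0, as in 62.8% of the loci within the limits. All 4 libraries entered the choice of members, and the ratios in total RNA spread more widely than those in polysome-bound RNA (quartiles of -0.39 and 0.38 against -0.28 and 0.25 within the limits), so this balance is a description only.

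Among members above 0 in all libraries with coordinates of their own, the 3 with the highest such change had centred ratios of -3.06 or below in total RNA and of -1.79 or above in polysome-bound RNA. The chromosome 4 locus above had the highest change among these, at 2.82. Among all members, chr2:65764943-65765893 (3.33) was above it and chr10:39922729-39924376 (2.75) next after it, both listed at 0 in a rea1 library and described further on. At chr3:19835198-19836420 the values were 1.47 FPKM in rea1 and 19.6 FPKM in wild-type total RNA, and 2.66 FPKM in rea1 and 6.57 FPKM in wild-type polysome-bound RNA (change 2.38). At chr2:13831658-13835109 they were 3.39 FPKM in rea1 and 22.9 FPKM in wild-type total RNA, and 7.52 FPKM in rea1 and 13.5 FPKM in wild-type polysome-bound RNA (change 2.05). In all 3, rea1 had more FPKM in polysome-bound than in total RNA, and wild type had less.

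The 3 with the lowest change, chosen in the same way, were more reduced on polysomes by this measure. The locus chr1:287133859-287135934 had 0.127 FPKM in rea1 and 0.848 FPKM in wild-type total RNA, and 0.612 FPKM in rea1 and 7.36 FPKM in wild-type polysome-bound RNA (change -1.29). The chromosome 3 locus at chr3:23898039-23899690, described above, followed with -1.22. Without the + 1 and as deposited, this locus was 30.3-fold lower in total and 14.6-fold lower in polysome-bound RNA. At chr1:225559003-225561307 the values were 13.1 FPKM in rea1 and 19.5 FPKM in wild-type total RNA, and 9.74 FPKM in rea1 and 42.6 FPKM in wild-type polysome-bound RNA (change -1.1). This last locus is the only 1 of the 3 above 1 FPKM in each library, and its deposited fold was 1.49 in total and 4.38 in polysome-bound RNA.

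The deposited log2 ratio of polysome-bound over total RNA was taken on FPKM + 1, which draws it towards 0 at low values. Its median over the members was 0.38 in rea1 and 0.50 in wild type. Over the loci within the limits the median was -0.46 in rea1 and -0.07 in wild type. The shares past 2-fold that follow use this ratio on FPKM + 1. Past 2-fold on the polysome-bound side were 34 members (21.7%) in rea1 and 47 (29.9%) in wild type, where 2.65% and 4.39% of the loci within the limits were. Past 2-fold on the total RNA side were 12 members (7.64%) in rea1 and 17 (10.8%) in wild type, where 19.6% and 6.73% of the loci within the limits were. In wild type the members were thus found more often at both ends than the loci within the limits. FPKM is relative to each library, so this ratio does not tell how much of a transcript is on ribosomes, and no test was possible with 1 library each. The ratio is built from the same 4 values that chose the members, so these shares support nothing. The loci lower in 1 fraction only had similar or higher shares in 1 genotype each. In rea1 the ratio was above 0 in 66.9% of the members, in 67.5% of the 766 loci lower in total RNA only and in 29.2% of the 209 loci lower in polysome-bound RNA only. In wild type 29.9% of the members were past 2-fold on the polysome-bound side. Of the loci lower in polysome-bound RNA only 45.5% were, and of those lower in total RNA only 4.44%. Members were also short, and what part that has in these shares was not tested.

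Grouped by the wild-type ratio, the 47 members past 2-fold on the polysome-bound side had median centred genotype ratios of -1.5 in total and -1.42 in polysome-bound RNA. The 17 members past 2-fold on the total RNA side had medians of -2.25 in total and -1.30 in polysome-bound RNA, and a median change of 0.71 in the polysome-to-total ratio. Over all loci within the limits the same classes had a median change of -0.48 (695 loci) and 0.30 (1065 loci), so they tilted the same way; the wild-type values enter both measures. The extremes of this ratio were picked after their values were seen. The highest in wild type was the chromosome 3 locus described above, at 3.92. The highest in rea1 was chr6:31600723-31602236 at 3.08, with 3.47 FPKM in rea1 and 27.5 FPKM in wild-type total RNA, and 36.9 FPKM in rea1 and 83.4 FPKM in wild-type polysome-bound RNA. The lowest in both genotypes was chr9:146714310-146717502. The chromosome 9 locus had 33.2 FPKM in rea1 and 87.5 FPKM in wild-type total RNA but only 1.05 FPKM in rea1 and 3.55 FPKM in wild-type polysome-bound RNA. On FPKM + 1 its log2 ratio of polysome-bound over total RNA was -4.06 in rea1 and -4.28 in wild type. Its low place on polysomes was common to both genotypes.

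**Figure D4:**
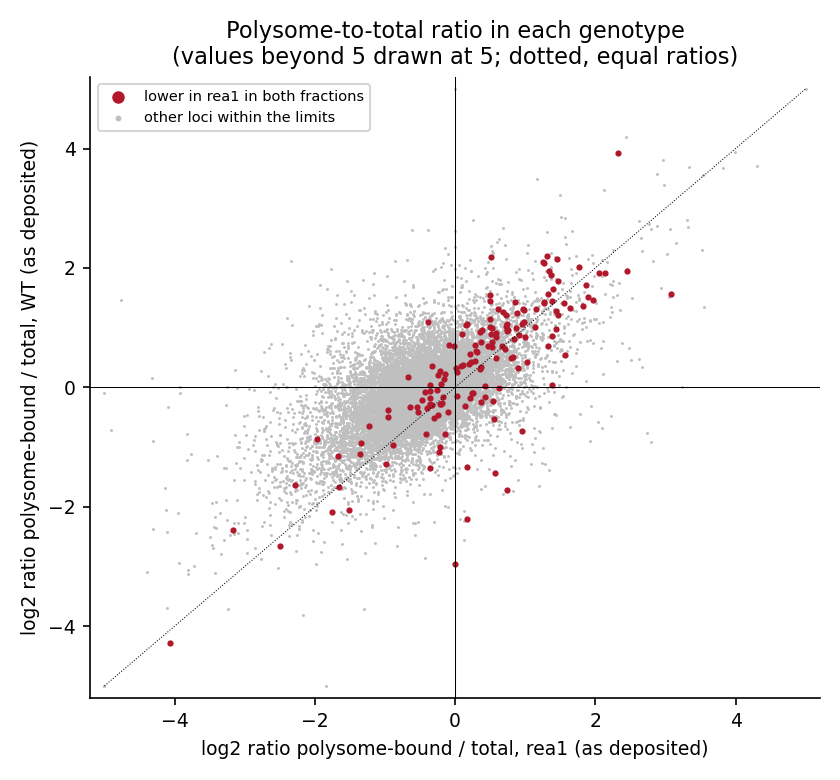
Deposited log2 ratio of polysome-bound over total RNA, taken on FPKM + 1, in rea1 (x axis) and wild type (y axis) for the loci within the limits (grey) and the 157 members (red). The dotted line marks equal ratios. The members' medians are 0.38 in rea1 and 0.50 in wild type, and they spread from about the upper right to the lower left corner along the dotted line.

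Beyond the limits of 600 and 20000 bp the rule did not use length, and the members were short. The median length, introns included, was 1713 bp for the members and 4013 bp for all loci within the limits. Under 2000 bp were 87 of the 157 members (55.4%) and 19.3% of the loci within the limits. The share of loci that were members was 3.62% under 1000 bp (30 of 829), 2.55% from 1000 to below 2000 bp (57 of 2234), 0.730% from 2000 to below 5000 bp (51 of 6984) and 0.328% at 5000 bp or more (19 of 5788). The order held among abundant loci: at a mean of 20 to 100 FPKM it was 4.11%, 2.90%, 0.522% and 0.0789% in the same 4 classes. Among the members averaging 10 FPKM or more the median length was 1332 bp, against 4348 bp for the loci within the limits at that level.

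Other loci past the fold were short too. The 209 loci lower in polysome-bound RNA only had a median length of 1960 bp, with 53.1% of them under 2000 bp, close to the members. The 766 loci lower in total RNA only had a median of 3017 bp and 32.8% under 2000 bp. The 84 loci with both centred ratios at 1 or above (0.53% of those within the limits) had a median length of 2498 bp, and 39.3% of them were under 2000 bp. Their share was 1.09%, 1.07%, 0.430% and 0.363% over the same length classes, so the classes differed less than for the members. At equal FPKM a short transcript yields fewer fragments than a long one and its value is less precise; what part this has in the lengths of the members was not tested, and the length of the spliced transcripts is not in the files used here.

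**Figure D5:**
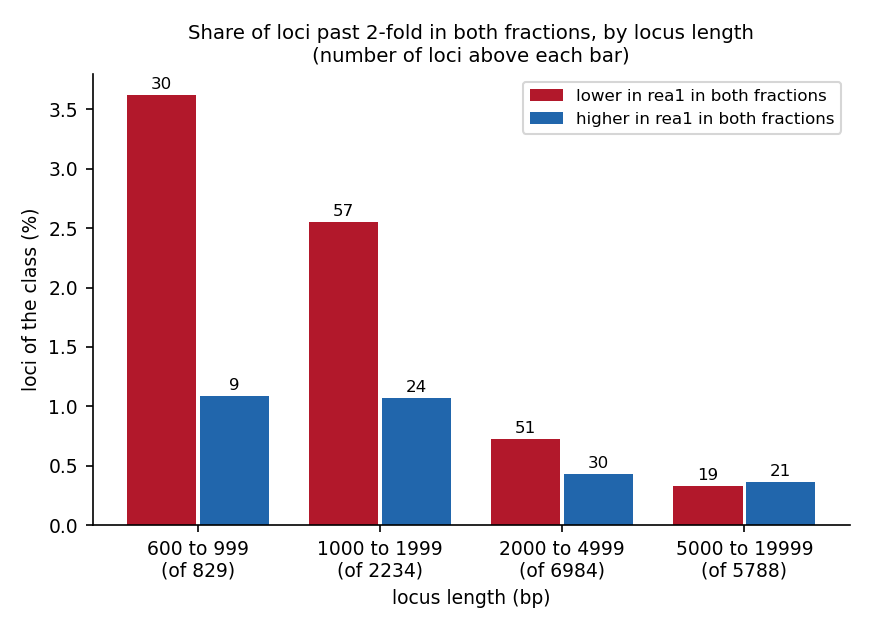
Share of the loci within the limits that were at least 2-fold lower (red) or at least 2-fold higher (blue) in rea1 in both fractions by centred ratio, in 4 classes of locus length; the number of loci stands above each bar. The share of lower loci is 3.62% in the shortest class and 0.328% in the longest, and that of higher loci 1.09% and 0.363%.

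By abundance, members were 1.51% of the loci averaging 1 to 2 FPKM (38 loci), 1.32% at 2 to 5 (52 loci), 0.609% at 5 to 10 (20 loci), 0.782% at 10 to 20 (22 loci) and 0.760% at 20 to 100 FPKM (25 loci). A mean that includes the low rea1 values places a locus in a lower class than its wild-type level would. The members' median centred ratio in the lowest class was -1.39 (total RNA) and -1.17 (polysome-bound RNA), and in the highest class -1.64 and -1.40. The 22 members at 10 to 20 FPKM had the lowest medians, -2.10 in total and -1.58 in polysome-bound RNA, with 5.08 FPKM in rea1 and 21.4 FPKM in wild type as the median level in total RNA. The ratios of the lowest classes are held near the threshold by the + 1.

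The members were scattered over the genome. They lay on all 10 chromosomes, from 0.587% of the loci within the limits on chromosome 7 (7 of 1192) to 1.47% on chromosome 6 (19 of 1294), with 33 on chromosome 1 (1.29%), 23 on chromosome 5 (1.18%) and 1 on a scaffold. In a fixed grid of 5 Mb windows, 102 windows held 1 member, 21 held 2, 3 held 3 and 1 held 4, while 343 windows with loci within the limits, scaffolds included, held none. The window with 4 was at 20 to 25 Mb of chromosome 5 (4 of 58 loci). Adjacency was taken among loci averaging 1 FPKM or more, and neighbours that were members themselves were left out here. The 303 other loci adjacent to a member had a median centred ratio of -0.01 in total and -0.01 in polysome-bound RNA. Both ratios were below 0 in 32.7% of these neighbours and in 31.9% of all 17682 loci.

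Next to another member lay 6 members, in 3 pairs. Of the 312 places beside a member, 1.92% were taken by another member, while members were 0.888% of the 17682 loci. On chromosome 5 the locus with the lowest mean ratio, at 208689492, was followed by chr5:208724193-208725137, which had 13.6 FPKM in rea1 and 18.8 FPKM in wild-type total RNA, and 10.6 FPKM in rea1 and 24.3 FPKM in wild-type polysome-bound RNA. The difference of this neighbour was far smaller, at 1.39-fold and 2.29-fold as deposited. Both pairs on chromosome 1 were of low abundance and each held a locus listed at 0 in rea1 total RNA. In the first, chr1:239783937-239799905 had 0.636 FPKM in rea1 and 2.66 FPKM in wild-type total RNA, and 3.55 FPKM in rea1 and 7.46 FPKM in wild-type polysome-bound RNA. Its neighbour chr1:239739033-239739754 was listed at 0 in rea1, against 0.954 FPKM in wild-type total RNA, with 0.653 FPKM in rea1 and 2.97 FPKM in wild-type polysome-bound RNA. In the second, chr1:1662969-1664360 had 0.467 FPKM in rea1 and 3.11 FPKM in wild-type total RNA, and 2.67 FPKM in rea1 and 5.62 FPKM in wild-type polysome-bound RNA. Beside it, chr1:1564786-1566049 was listed at 0 in rea1, against 1.36 FPKM in wild-type total RNA, with 0.637 FPKM in rea1 and 2.70 FPKM in wild-type polysome-bound RNA.

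Very abundant loci lay near members about as often as near other loci. Of the members, 4 (2.55%) lay within 500 kb of 1 of the 70 loci averaging 1000 FPKM or more, as did 3.35% of the loci within the limits. The most abundant of these 4, chr1:25409169-25413691, had 15.9 FPKM in rea1 and 33.4 FPKM in wild-type total RNA, and 14.1 FPKM in rea1 and 29.9 FPKM in wild-type polysome-bound RNA; it is named here after its values were seen.

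An exact 0 can be a failed estimate, so no fold is given against it. In total, 4 members were listed at 0 in rea1 total RNA, 1 of them also in rea1 polysome-bound RNA, and none in a wild-type library, a side on which the rule asks for the higher value. Listed at 0 in at least 1 library were thus 2.55% of the members and 0.853% of the loci within the limits, and in rea1 total RNA 4 of 157 against 22 of 15835. The most abundant of them, chr10:39922729-39924376, was listed at 0 in rea1 and had 11.5 FPKM in wild-type total RNA, with 0.121 FPKM in rea1 and 1.71 FPKM in wild-type polysome-bound RNA. The locus chr2:65764943-65765893 was listed at 0 in both rea1 libraries, and at 12.5 FPKM in total and 0.738 FPKM in polysome-bound RNA of wild type. The other 2 belong to the chromosome 1 pairs.

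In the whole list, loci overlapped only where 2 or more entries had identical coordinates, which was true of 6 members (3.82%) and of 5.51% of the loci within the limits. In 3 of the 6 the other entry had a mean below 1 FPKM. At chr1:184941358-184944047 the member had 1.39 FPKM in rea1 and 7.36 FPKM in wild-type total RNA, and 0.290 FPKM in rea1 and 3.27 FPKM in wild-type polysome-bound RNA. The other entry there had 16.3 FPKM in rea1 and 11.6 FPKM in wild-type total RNA, higher in rea1 as deposited, and 0.499 FPKM in rea1 and 4.43 FPKM in wild-type polysome-bound RNA. At chr6:151081203-151086854 the member had 2.79 FPKM in rea1 and 5.15 FPKM in wild-type total RNA, beside an entry with 99.6 FPKM in rea1 and 82.6 FPKM in wild-type total RNA. The member at chr1:82223659-82225113 had 9.09 FPKM in rea1 and 21.8 FPKM in wild-type total RNA, beside an entry with 4.27 and 3.05 FPKM. In polysome-bound RNA this member had 12.5 FPKM in rea1 and 22.0 FPKM in wild type, and that entry 3.75 and 4.23 FPKM. How reads were divided between such entries was not stated, and these members' values are uncertain.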

How the data were processed

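Total and polysome-bound RNA of rea1 and wild-type endosperm were measured in 1 file each. The authors deposited FPKM per locus; the submitters' processing notes name Bowtie 0.12.2 and the build B73 RefGen_v3. The FPKM software, denominator, annotation and read depth, not given in the sources used here, are unknown, so no interval could be given. The members and lists were chosen with earlier results of these data known, and the rule for named loci was set with them.

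Ratios used log2(FPKM + 1), centred on the median over loci averaging 1 FPKM or more; no p-value was computed. Among members above 0 in every library with unshared coordinates, the named loci were the 8 of highest mean, 6 of lowest mean ratio, 3 highest and 3 lowest by change of the polysome-to-total ratio, and 3 on each side of the threshold. All adjacent members and the 2 most abundant members listed at 0 were added. Starts were read as counted from 0, because 48 of 73 organelle loci then had lengths divisible by 3, against 16 otherwise. A gene table of another build was not used. Alternatives covered the pseudocount, filters, scaling, thresholds and length. The selection step was tested on simulated data. Python 3.11.15, numpy 2.4.6, pandas 2.3.3 and matplotlib 3.10.9 were used.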

Additional observations from a re-analysis of the deposited data

Results flagged for a closer look

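In 9 of the named members the deposited log2 ratio of polysome-bound over total RNA, taken on FPKM + 1, had opposite signs in rea1 and wild type. With 1 library per group the difference was not tested. In 5 the ratio was above 0 in rea1 and below 0 in wild type. For chr4:198956014-198957649 it was 0.73 in rea1 and -1.71 in wild type (difference 2.45), for chr10:39922729-39924376, listed at 0 in rea1 total RNA, 0.16 and -2.21 (2.37), for chr3:19835198-19836420 0.57 and -1.44 (2.01), for chr2:13831658-13835109 0.96 and -0.72 (1.68), and for chr6:128648202-128649046 0.55 and -0.53 (1.08). In the other 4 it was below 0 in rea1 and above 0 in wild type. For chr1:225559003-225561307 it was -0.39 in rea1 and 1.09 in wild type (difference -1.48), for chr5:208724193-208725137 -0.32 and 0.36 (-0.68), for chr1:73382596-73385374 -0.22 and 0.28 (-0.49), and for chr7:158998200-158999609 -0.19 and 0.05 (-0.25). Apart from a constant set by the centring, this difference is what some of these loci were named for. The loci chr4:198956014-198957649, chr3:19835198-19836420 and chr2:13831658-13835109 were named for high values of it, and chr1:225559003-225561307 for a low value. That choice favoured opposite signs, so in these loci they are no separate observation. Among all 157 members, 15 were of the first kind and 11 of the second. Among the 15835 loci within the limits these numbers were 919 and 4415. The first kind was thus the more frequent among members, and the second among the loci within the limits. As deposited, the ratio in rea1 had a median of -0.47 over the loci averaging 1 FPKM or more and that in wild type -0.06, so a sign also depends on the scaling.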

How the results depend on the processing

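The number of loci lower in both fractions depended on the settings. It was 157 as reported, 305 with a pseudocount of 0.1 and 35 with 5, 67 and 47 with a mean of at least 5 and 10 FPKM, 47 with the values as deposited, 99 with a trimmed mean, and 33 with a threshold of -1.5 and 669 with a threshold of 1.5-fold. All 157 were among the 305, and 35 of the 35 and 99 of the 99 were among the 157. The 669 contain all 157 by definition, since only the threshold was looser. Under the 9 other settings it lay between 121 and 191, with 122 (120 of them shared with the 157) for median-of-ratios scaling and 173 (137 shared) for equal sums without the 50 most abundant loci. The median change of the polysome-to-total ratio, 0.21, stayed above 0 under each setting run, with members chosen anew each time. It was 0.34 and 0.023 with pseudocounts of 0.1 and 5, and 0.40 with the threshold of -1.5. With no upper limit on the mean it was 0.38. That setting was added after the data were seen, as was centring on the loci within the limits. With the values as deposited the median change was 0.16 over the 47 loci chosen that way. Over the 157 members, the median deposited log2 ratio was -0.93 in total and -1.06 in polysome-bound RNA. For that set the sign therefore rests on the centring. Centring moves all loci alike: the median change over the 17682 loci was -0.37 as deposited and 0.00 after centring. Of the named loci's ratios recomputed under 6 settings, 306 values kept their side of -1, 58 no longer reached it, 8 newly did and 0 changed sign. No paired analysis was possible because each group held 1 library. Without replicates and read totals, differences near the threshold cannot be told from measurement error.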
